A study of Mus musculus with 16 samples.

Results

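The Zfp42 locus is the stretch of mouse chromosome 8 that holds Zfp42 (gene ID 22702, also called Rex1) and 100 kb of DNA on either side of it. Its members are all ATAC-seq peaks of 16 deposited lists that lie in this window, chr8:43195067-43407009 in build mm10, which spans 211943 bp. The 16 lists held 149 such peaks of 575501 in all, and merging peaks that overlapped by 1 bp or more gave 29 regions of 163173 in the series. The locus was chosen because several of its regions were found only in lists from cells without p53, so the presence of peaks in p53-null against parental lists is described here without a test and supports nothing.

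ATAC-seq marks open chromatin by the insertion of a transposase, and a peak is a stretch in which insertions pile up. The libraries came from mouse embryonic stem cells (ESCs) with an Rx:GFP knock-in, a reporter of the eye field gene Rax, and formed 8 groups of 2 replicates each. The 6 ESC groups were kept in 2i+LIF, a medium that holds ESCs in the naive state: the parental line, p53 knockout clones C9 and H9, and cells lacking both Wdr5 and p53 that carried the empty backbone plasmid, a WDR5WT plasmid or a WDR5 S91K-Y191F plasmid (human WDR5, per the series title). The 2 embryoid body groups, parental cells labelled day 4 and Wdr5 and p53 double knockout cells with no day in their labels, were differentiated by the SFEBq method, a serum-free aggregate culture with 5% KSR and 2% matrigel from day 1. Every ESC group except the parental line lacks p53, and no group lacks Wdr5 alone. Loss of Wdr5 can thus be compared only among p53-null ESCs, not with p53 present. In the double knockout embryoid bodies the part of each loss cannot be told apart. Clones C9 and H9 are each 1 clone, and the labels do not say from how many clones the double knockouts came or whether replicates were separate cultures, so p-values measure only the spread between these libraries.

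Zfp42 encodes REX1, a zinc finger protein that arose from the YY1 family by retrotransposition. It is a standard marker of naive pluripotency, transcribed in ESCs and the inner cell mass and silenced as cells leave the naive state. OCT4 and SOX2, NANOG and Krüppel-like factors are known to act on its regulatory DNA, and the E3 ligase RLIM marks the REX1 protein for degradation during X-chromosome inactivation. WDR5 is a shared subunit of the complexes that methylate histone H3 at promoters, and p53 is a transcription factor activated by stress known to repress Nanog when ESCs differentiate.

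The gene lies on the minus strand at chr8:43295067-43307009 (11943 bp), so the start site is at 43307009 and upstream runs towards higher coordinates. It is the sole protein-coding gene in the window. The pseudogene Gm2221 (43199967 to 43200543) is the other annotated gene there, and the nearest coding neighbours are Triml2, 101 kb beyond the 3′ end, Triml1, 115 kb beyond it, and Adam26b, 213 kb upstream. The RefSeq promoter of Zfp42 (GRCm38.p6, minus strand, chr8:43306960-43307259, 250 bases before to 50 after the start site) is shown because a peak of every one of the 16 lists covered all 300 of its bases. Capitals mark the motif matches named after it.
Zfp42 promoter: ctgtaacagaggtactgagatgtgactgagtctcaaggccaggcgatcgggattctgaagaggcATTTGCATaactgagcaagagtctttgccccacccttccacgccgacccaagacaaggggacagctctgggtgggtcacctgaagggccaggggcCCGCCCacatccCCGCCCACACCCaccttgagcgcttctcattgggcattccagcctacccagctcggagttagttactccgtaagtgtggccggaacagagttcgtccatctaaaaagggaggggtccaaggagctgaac
The first capitals, ATTTGCAT, are the complement of the octamer ATGCAAAT, the motif that OCT4 reads, and lie 186 to 179 bp upstream of the start site. Of 32851 mouse promoters of the same length, 1.74% hold an octamer on either strand. The other capitals are 2 GC boxes (CCGCCC, at 91 to 86 and 79 to 74 bp upstream; 35.7% of promoters), which SP and Krüppel-like factors can bind, and 1 CACCC box (CCACACCC, 75 to 68 bp upstream, overlapping the nearer GC box; 3.56%). Neither strand held the Sox core ACAATG (12.6% of promoters), the nuclear receptor site AAGGTCA (4.72%), the YY1 core CCATNTT (16.1%), the STAT site TTCCNGGAA (1.15%), the E-box CACGTG (7.15%), TATAAA (13.6%) or the p53 decamer, searched by its consensus (8.36%). These letters are a description of the window and show no binding. G and C made up 57.7% of the promoter, where the median over all promoters was 52.7%.

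The lists differed in length in ways that bear on every count below. Backbone lists held 1535 and 2492 peaks, S91K-Y191F lists 5174 and 16257, parental ESC lists 24367 and 5330, the 6 lists of p53-null ESCs with wild-type WDR5 26305 to 32709, and embryoid body lists 75673 to 93646. The share of listed peaks on chromosome 8 also varied, from 6.25% in parental ESC replicate 1 to 28.6% in backbone replicate 1 among ESCs. In embryoid bodies it was 5.29% and 5.37% in parental and 7.56% and 7.53% in double knockout lists. The files hold no read counts, so depth is unknown, no counting interval can be given, and a missing peak is not shown to be closed chromatin. A peak at the start site of Trp53 or Wdr5 does not check a deletion within the gene. Such peaks were listed in 5 of 12 ESC lists for Trp53 and 1 of 12 for Wdr5, and in all 4 embryoid body lists for both. Start-site peaks of the 15 naive and core pluripotency genes with a promoter entry numbered 12 or 13 in each list of p53-null ESCs with wild-type WDR5, 13 and 4 in parental, 3 and 9 in S91K-Y191F and 1 and 2 in backbone lists. The fibroblast genes Col1a2 and Twist1 had 1 or 2 start-site peaks in the first of these groups and at most 1 in the others. In embryoid bodies 13 and 15 such pluripotency genes had a start-site peak in each parental and each double knockout list. Of 9 neuroectoderm and eye field genes, 8 and 9 did in parental and 7 and 8 in double knockout embryoid bodies.

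Only 2 of the 29 regions (6.9%) had a peak in all 16 lists: the start site of Zfp42 (43306462 to 43307581) and a region centred 14.1 kb upstream of it (43320505 to 43321736). Of all regions in the series 0.121% were in all 16 lists, and of those on chromosome 8 0.483%. Both were already in the backbone lists, the shortest of the series, which held nothing else of the locus. A start-site peak in all 16 lists was found at 156 of 17492 protein-coding genes with a promoter entry (0.892%), and at 42 of 725 on chromosome 8 (5.79%).

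In ESC lists the deposited signal of the start-site peak was 236 and 572 in backbone, 975 and 1803 in S91K-Y191F, 1598 and 635 in parental, 2170 and 2535 in clone C9, 2167 and 2475 in clone H9, and 1983 and 2122 in WDR5WT ESCs. The signal has no stated scaling and no peak is listed under 200, so its place within a list is the safer reading. By that place the peak was among the top 2.55% to 7.46% in the 6 lists of p53-null ESCs with wild-type WDR5. It was at 6.49% and 18.1% in parental, 9.8% and 4.11% in S91K-Y191F, and 87.0% and 29.8% in backbone lists, where 100% is the weakest peak. The start site was thus among the stronger peaks of the ESC lists, except in those of the backbone. Its summit lay between 168 bp upstream and 38 bp downstream of the annotated start.

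The upstream region, whose ESC summits lay between 13.89 and 14.06 kb from the start site, gave signals of 304 and 819 in backbone, 1206 and 2288 in S91K-Y191F, 1804 and 788 in parental, 2192 and 2367 in C9, 2452 and 2495 in H9, and 2075 and 2231 in WDR5WT ESCs. Within each list, its signal divided by that of the start-site peak was 1.29 and 1.43 in backbone, 1.24 and 1.27 in S91K-Y191F, 1.13 and 1.24 in parental, 1.01 and 0.934 in C9, 1.13 and 1.01 in H9 and 1.05 in both WDR5WT lists. The 4 lists of p53-null ESCs without wild-type WDR5 (1.24 to 1.43) lay above the 6 with it (0.934 to 1.13), with parental lists between and touching both; this order was noticed after the values were seen and was not tested. In embryoid bodies the order of the pair was the other way round. Fold enrichment over background at the start site was 7.82 and 8.43 in parental and 6.79 and 6.71 in double knockout lists, and at the upstream region 6.11 and 4.75 against 4.34 and 4.75, which gave ratios of 0.781, 0.564, 0.64 and 0.708. Signal and fold enrichment come from differently made lists, so ESC and embryoid body values are set side by side only.

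**Figure D1:**
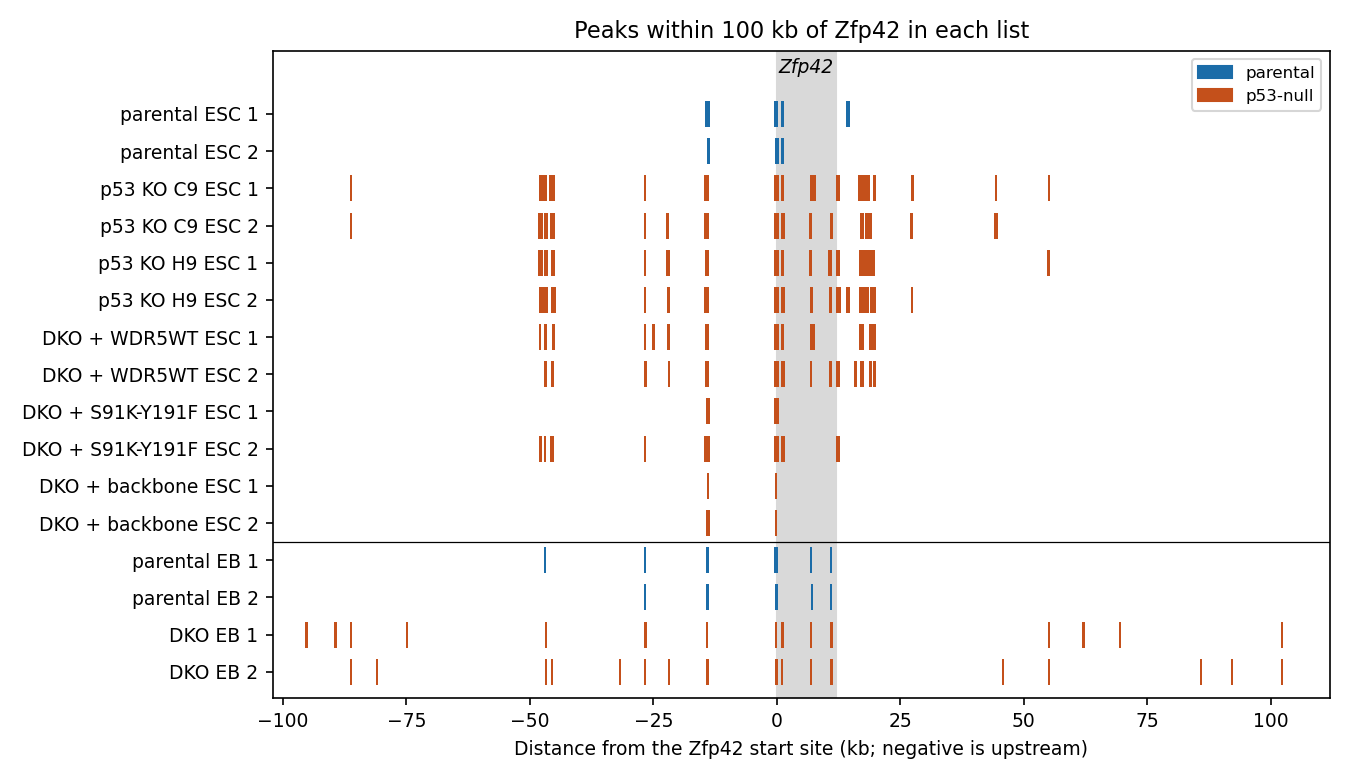
Peaks of the Zfp42 window in each of the 16 lists, drawn along the distance from the start site in kb (negative is upstream; peaks under 500 bp are drawn 500 bp wide; grey, the gene; blue, parental; orange, p53-null). The start-site peak and the peak about 14 kb upstream are in all 16 lists, while most other positions have orange marks only.

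By raw number, parental ESCs had few peaks at the locus and p53 knockout ESCs many. Parental lists held 4 and 3 peaks, clone C9 lists 15 and 16, and clone H9 lists 13 and 15. Per 10000 listed peaks these were 1.64 and 5.63 in parental, 5.70 and 5.03 in C9, and 4.22 and 4.82 in H9 lists. Parental replicate 2, the shorter parental list, thus lay within the range of the knockout lists. Merging these 6 lists gave 16 regions, of which 5 (31.2%) had a peak in all 4 p53 knockout and neither parental list, 3 were in all 6 lists, and 0 had the reverse pattern. The same pattern was called for 11.9% of all regions and 20.7% of chromosome 8 regions, and the reverse for 2.44% of all regions. The locus was chosen by this contrast, so nothing is read from its share.

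The 5 regions lay on both sides of the gene and in it. A pair of neighbouring regions centred 47.4 and 45.4 kb upstream (43353368 to 43355442 and 43351666 to 43353057) had highest signals of 795 and 752 in C9 and 1017 and 1040 in H9, and of 1092 and 1117 in C9 and 1006 and 1146 in H9. A region 26.6 kb upstream (43333450 to 43333841) was weaker, at 402, 578, 489 and 364 in the same order of lists. Inside the gene, 7.2 kb from the start site (43299148 to 43300481), signals were 520, 657, 563 and 392. The broadest of the 5, 3757 bp wide and centred 18.2 kb from the start site beyond the 3′ end (43286896 to 43290652), reached 1755, 1029, 2226 and 1634. In H9 replicate 1 the signal of that last peak was 103% of that of the start-site peak, and in the other 3 lists 40.6% to 80.9%. The H9 replicate 1 peak was 3292 bp wide with a −log10 p of 3.87, where the start-site peak was 988 bp wide with 6.91, so the 2 strength columns of that list order them differently.

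The counts moved with list length under some settings and not under others. Against parental replicate 1 alone, with each p53 knockout list trimmed to its top 24367 peaks, the length of that parental list (an alternative added after the data were seen), 5 regions of the locus were again found only in the knockout (9.53% of all regions and 18.3% on chromosome 8). The trimmed lists held 13, 14, 11 and 14 locus peaks against 4. With all lists trimmed to the shortest, 5330 peaks, 0 regions were left, and with the stronger 50% of each list by p, 3 were. The count was 9 when 3 of the 4 knockout lists sufficed and 8 without C9 replicate 1. Peaks that parental ESC lists lacked were of middling strength: their median place within a p53 knockout list was the top 43.0% to 50.4%, and the strongest was in the top 5.02%, in H9 replicate 1.

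**Figure D2:**
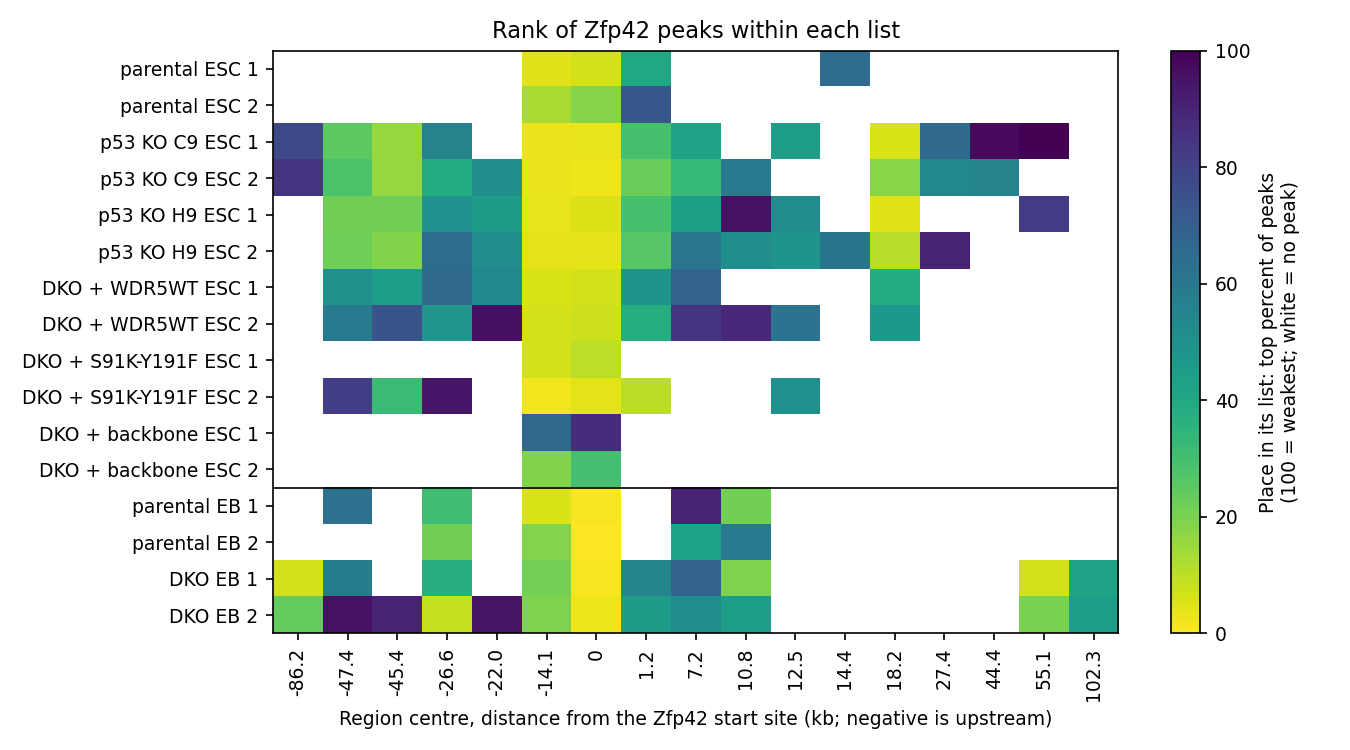
Place of each Zfp42 region within each list, as the top percent of that list's peaks (colour; 0 is the strongest, 100 the weakest, white means no peak), for the 17 regions found in 2 or more lists. The columns at 14.1 kb upstream and at the start site are filled in every list, and the best place of a region that parental lists lack is the top 5.02%, 18.2 kb downstream in H9 replicate 1.

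Embryoid bodies gave another contrast of cells with and without p53, here combined with loss of Wdr5. The series design names embryoid bodies of day 2 and day 4 and the double knockout labels give no day, so genotype and a possible difference in day cannot be told apart. Parental lists held 6 and 5 locus peaks and double knockout lists 15 and 17, from lists of like length. Of 22 merged regions, 4 (18.2%) were in both double knockout and neither parental list, 5 were in all 4 lists, and 0 had the reverse pattern. Among all regions 4.69% were found only in the double knockout (8.98% on chromosome 8) and 4.27% only in the parental lists. The locus was chosen by this contrast too.

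The 4 regions lay 86.2 kb upstream (43393096 to 43393316), 1.1 kb inside the gene (43305687 to 43306075), and 55.1 and 102.3 kb from the start site beyond the 3′ end (43251715 to 43252009 and 43204564 to 43204826). Their fold enrichments in double knockout replicates 1 and 2 were 5.40 and 4.53, 3.41 and 3.79, 5.37 and 4.70, and 3.66 and 3.81. In replicate 1 the regions at 86.2 and 55.1 kb followed the start site directly, above the region 14.1 kb upstream (4.34). In replicate 2 the regions 26.6 kb (5.58) and 14.1 kb (4.75) upstream were above them. With 1 double knockout list left out, the count was 11 without replicate 1 and 9 without replicate 2, and within 50 kb of the gene it was 2. The 5 regions of all 4 lists were the start site, the region 14.1 kb upstream, that 26.6 kb upstream (4.05 and 4.55 in parental, 3.78 and 5.58 in double knockout lists) and 2 inside the gene. Inside the gene the region at 7.2 kb had 2.7 and 3.75 in parental and 3.16 and 3.62 in double knockout lists, and that at 10.8 kb, close to the 3′ end, 4.54 and 3.36 against 4.41 and 3.81.

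Across both cell states, 21 of the 29 regions (72.4%) were in no parental list, against 29.8% of all regions and 46.7% of those on chromosome 8. They divide into 6 found in p53-null ESC lists only, 11 in double knockout embryoid body lists only and 4 in both. Those 4 (2.43% of all regions and 6.09% on chromosome 8 had that pattern) lay 86.2, 45.4 and 22.0 kb upstream and 55.1 kb downstream. At least 2 p53-null ESC lists and both double knockout embryoid body lists held the regions at 86.2 and 55.1 kb, as for 0.641% of all regions and 1.78% on chromosome 8. In ESCs the same 2 regions were near the detection limit, with signals of 274 and 252 (86.2 kb, both C9 lists) and of 202 and 263 (55.1 kb, C9 replicate 1 and H9 replicate 1).

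Some regions that parental ESC lists lacked were listed in parental embryoid bodies. Of the 5 regions found in p53 knockout but not parental ESCs, 3 had a peak in a parental embryoid body list: the one 47.4 kb upstream in replicate 1 (fold enrichment 3.19), and those at 26.6 kb upstream and 7.2 kb inside the gene in both. The region at 10.8 kb was likewise in both parental embryoid body lists, 4 p53-null ESC lists and no parental ESC list. The regions 45.4 kb upstream and 18.2 kb downstream were in no parental list of either state, and the latter was in no embryoid body list at all. The region 1.2 kb inside the gene showed the opposite arrangement: it was in both parental ESC lists (signals 576 and 266) and all 4 p53 knockout lists (710 to 908), but among embryoid bodies only in the double knockout.

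**Figure D3:**
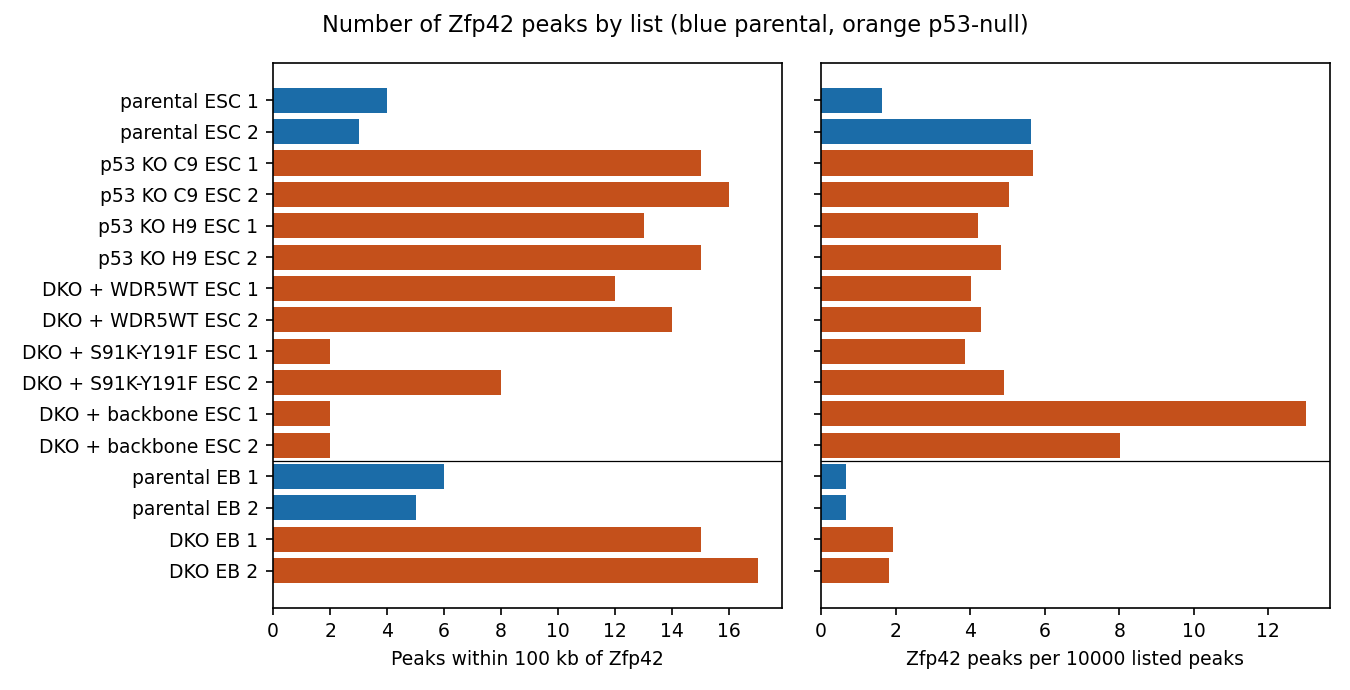
Number of peaks within 100 kb of Zfp42 in each list (left) and the same number per 10000 listed peaks (right); each bar is 1 library, blue parental and orange p53-null, with embryoid bodies under the line. The left bars of C9, H9 and WDR5WT lists reach 12 to 16 against 2 to 8 in the other ESC lists, while on the right the backbone bars, from the 2 shortest lists, are the highest.

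WDR5 status among p53-null ESCs was not part of the rule that chose the locus and was tested. The test is not independent of that choice, because the p53-null ESC peaks that led to it came mostly from lists with wild-type WDR5. Backbone lists held 2 locus peaks each, S91K-Y191F lists 2 and 8, and WDR5WT lists 12 and 14, beside the 13 to 16 of the p53 knockout clones. Per 10000 listed peaks these were 13.0 and 8.03 in backbone, 3.87 and 4.92 in S91K-Y191F, 4.03 and 4.28 in WDR5WT, and 4.22 to 5.70 in p53 knockout ESCs. The raw number was thus lowest in the 3 shortest of these lists. Per listed peak, 2 of those 3, the backbone lists, had the highest values and S91K-Y191F replicate 1 the lowest.

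Cells without wild-type WDR5 had 7.46 ± 4.11 locus peaks per 10000 (SD, n = 4) and cells with it 4.68 ± 0.629 (SD, n = 6), a difference of 2.78 that did not pass a two-sided exact permutation test (p = 0.105, adjusted p = 0.333 over 4 tests; smallest possible 0.00476). The groups overlapped, and the 2 backbone lists alone were above all others. The sign depended on the denominator: per 1000 chromosome 8 peaks the difference was -1.3 (exact permutation p = 0.0238), and over all alternatives p ran from 0.0238 to 0.467. The difference was 0.923 without backbone replicate 1 and 3.98 without S91K-Y191F replicate 1 (exact permutation p = 0.0357). List length and the chromosome 8 share, 10.4% to 28.6% without and 8.73% to 9.78% with wild-type WDR5, moved with the grouping, and their part in the result was not tested.

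The pairwise tests gave no difference past the threshold either. WDR5WT ESCs had 4.15 ± 0.177 (SD, n = 2) and p53 knockout ESCs 4.94 ± 0.61 (SD, n = 4) locus peaks per 10000 (difference -0.79, two-sided exact permutation p = 0.267, adjusted p = 0.333; smallest possible 0.0667). S91K-Y191F ESCs had 4.39 ± 0.746 and backbone ESCs 10.5 ± 3.54 (SD, n = 2 each; difference -6.13, exact permutation p = 0.333, the smallest possible, adjusted p = 0.333). The latter difference was 0.0 at equal list length and -0.427 per 1000 chromosome 8 peaks, and the former -3.08 in the stronger 50% of each list (exact permutation p = 0.0667). Neither design can reach 0.05.

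Region by region, the 2 S91K-Y191F lists differed from each other. Replicate 1, from the shorter list, had the start-site and upstream peaks alone. Replicate 2 had those and peaks 47.4 kb (highest signal 262), 45.4 kb (655) and 26.6 kb (218) upstream, 1.2 kb inside the gene (1230) and 12.5 kb from the start site just beyond the 3′ end (452). Of 8 merged regions, 0 were therefore found only in both S91K-Y191F lists (15.6% of all regions) and 0 only in both backbone lists (0.408%). Against parental ESCs, S91K-Y191F lists gave 0 of 9 regions in either direction (0.43% and 0.63% of all regions). Backbone lists gave 0 of 4 backbone-only regions (0.43%) and 1 parental-only region (11.6%), that about 1.1 kb inside the gene.

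WDR5WT ESCs, in which the plasmid supplies WDR5, shared regions with the p53 knockout clones. Of 18 merged regions 8 were in all 6 lists of the 2 genotypes, 5 had no WDR5WT peak and 2 no p53 knockout peak. How common these patterns are among all regions was not counted. There were fewer WDR5WT than p53 knockout lists, so the counts of absent peaks are not alike. In terms of whole groups, 0 of the 18 regions were found only in WDR5WT (3.25% of all regions) and 0 only in p53 knockout lists (1.85%). Against the backbone, 8 of 15 regions (53.3%) were found only in WDR5WT lists, where 64.8% of all regions were, and 0 only in backbone lists (2.19%). Against parental ESCs, 7 of 16 (43.8%) were, where 22.4% of all regions and 33.4% of chromosome 8 regions were, and 0 were parental-only (2.83%). In both counts the regions 17.2 and 19.4 kb downstream enter apart, but lie within the 1 region 18.2 kb downstream of the clones. The counts are thus not on the scale of that of the clones. This contrast shares the parental libraries with that of the clones, and WDR5WT cells lack p53, so it too belongs to the choice of the locus.

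Presence alone hides how strong the shared regions were. For the 7 regions other than the start site that all 6 WDR5WT and p53 knockout lists held, the highest signal in each list was taken as a percentage of the start-site peak of that list, a measure added after the values were seen. At 45.4 kb upstream it was 28.4% and 15.1% in WDR5WT replicates 1 and 2, and 50.3%, 44.1%, 46.4% and 46.3% in the C9 and H9 lists. No WDR5WT list reached the lowest knockout list, with means of 21.7 ± 9.34 (SD, n = 2) and 46.8 ± 2.59 (SD, n = 4), and the two-sided exact permutation p was 0.0667, the smallest possible (adjusted p = 0.233 over 7 regions).

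The neighbouring region at 47.4 kb was at 25.6% and 20.5% in WDR5WT lists and at 29.7% to 46.9% in the clones (exact permutation p = 0.133, adjusted p = 0.233). The broad region 18.2 kb downstream was at 32.7% and 27.1% against 40.6% to 103% (exact permutation p = 0.133, adjusted p = 0.233). Both pairs of groups were separate in signal, but the design cannot show a difference at 0.05. The peaks behind the values at 18.2 kb differed in width. They were 921 and 722 bp wide in WDR5WT, and 2577, 895, 3292 and 1988 bp in C9 and H9 lists. By the highest −log10 p at that region the groups overlapped, with 3.59 and 3.9 in WDR5WT and 3.87 to 4.48 in knockout lists. The part of peak width was not tested. At 1.2 and 7.2 kb inside the gene the ranges overlapped (25.8% and 33.5% against 32.7% to 37.7%; 17.4% and 12.3% against 15.8% to 26%), as they did at 26.6 kb upstream (18.3% and 26.3% against 14.7% to 22.8%). The region 14.1 kb upstream was at 105% in both WDR5WT lists and 93.4% to 113% in the clones. WDR5WT values were thus lower at some regions of the locus and not at others, and no region passed the test. The regions at 47.4, 45.4 and 26.6 kb upstream and at 7.2 and 18.2 kb were found only in p53 knockout against parental ESCs. The locus was chosen by that contrast, which can favour high knockout values, so nothing is read from the order of the groups.

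**Figure D4:**
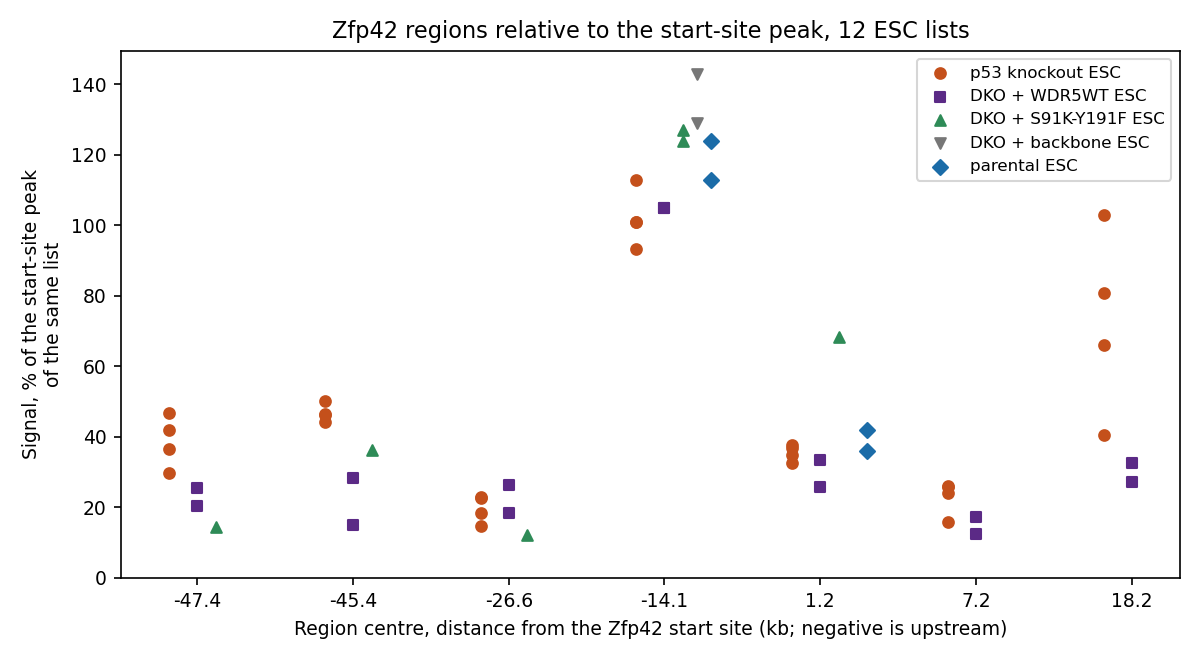
Highest signal of 7 Zfp42 regions as a percentage of the start-site peak of the same ESC list, by region centre (kb from the start site, negative upstream); each point is 1 library and a missing point means no peak. WDR5WT points lie under all p53 knockout points at 47.4 and 45.4 kb upstream and 18.2 kb downstream; at 26.6 kb upstream 1 lies above all of them and 1 among them, and at 14.1 kb upstream both lie among them.

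The spread between p53 knockout clones was also measured at the locus. C9 lists had 5.37 ± 0.472 and H9 lists 4.52 ± 0.421 locus peaks per 10000 (SD, n = 2 each; difference 0.847, two-sided exact permutation p = 0.333, the smallest possible, adjusted p = 0.333). Of 16 merged regions, 8 were in all 4 lists, 2 in both C9 and neither H9 list (2.26% of all regions had that pattern) and 0 in the reverse (4.63%). The C9 pair lay 86.2 kb upstream and 44.4 kb downstream, the latter with signals of 207 and 408. Regions 22.0 kb upstream (448 in C9 replicate 2, 547 and 469 in H9), 10.8 kb (386 in C9 replicate 2, 214 and 487 in H9), 12.5 kb (500 in C9 replicate 1, 468 and 509 in H9) and 27.4 kb downstream (335 and 424 in C9, 232 in H9 replicate 2) each missed 1 of the 4 lists. The highest of these signals was 547, and no ESC peak is listed under 200.

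The remaining regions were single or sparse. Of the 29, 12 (41.4%) were in 1 list only, close to the 41.7% of all regions. Double knockout embryoid body replicate 1 alone had those 95.2, 89.3 and 74.9 kb upstream and 62.1 and 69.5 kb downstream. Replicate 2 alone had those 81.0 and 31.8 kb upstream and 45.8, 85.9 and 92.2 kb downstream. WDR5WT replicate 1 alone had 1 region 25.0 kb upstream and WDR5WT replicate 2 alone 1 at 16 kb downstream. A region 14.4 kb downstream was shared by parental ESC replicate 1 (signal 354) and H9 replicate 2 (388). By place, 12 regions were upstream, 1 spanned the start site, 3 were inside the gene and 13 lay beyond its 3′ end. The outermost regions inside the window were 95.1 kb from the gene upstream and 90.2 kb beyond its 3′ end, both in double knockout embryoid bodies only. The nearest ones outside were just over 100 kb upstream (43407278 to 43407889, in 6 lists, 2 of them parental embryoid bodies) and 108 kb beyond the 3′ end (H9 replicate 1).

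Other genes of the naive and core pluripotency network were set beside Zfp42 by the same window. Of 20 such genes, 10 had at least 1 region found only in p53 knockout against parental ESCs, at most 3 each, and 0 had a parental-only region. Summed over gene windows, these genes had 18 of 158 regions (11.4%) in that pattern, near the 11.9% of all regions. A region in overlapping windows enters such sums more than once. Zfp42, which was chosen by this contrast, had 5 of 16. In embryoid bodies 10 genes had double-knockout-only regions (16 of 463 summed over windows, 3.46%, at most 3 each), where 4.69% of all regions were. Parental-only regions made up 4.27% of all regions, and 13 genes had at least 1, at most 3 each. Zfp42, chosen by this contrast too, had 4 and 0. By the 2 counts together the list was led by Klf5, a Krüppel-like factor (2 in ESCs and 3 in embryoid bodies), Fgf4, a growth factor under OCT4 and SOX2 control (2 and 2), and the neighbours Nanog and Dppa3, whose windows overlap (3 and 0 each). Nr5a2, a nuclear receptor (1 and 2), and Tdgf1, a NODAL co-receptor (2 and 1), had as many as Nanog. Pou5f1, which encodes OCT4, and Esrrb, an orphan nuclear receptor, had 0 and 2 each, Klf4 1 and 1, and Sox2 0 and 0. Parental-only regions of embryoid bodies, not in these counts, numbered 3 each at Nanog, Dppa3 and Esrrb and 2 each at Fgf4, Nr5a2 and Sox2. Tdgf1 had 1, and Klf5, Pou5f1 and Klf4 had 0.

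At start sites Zfp42 differed from these genes in the short lists. Of the 14 others with a promoter entry, 0 had a start-site peak in both backbone lists and 0 in all 16 lists, although 12 had one in all 4 embryoid body lists. Over all protein-coding genes 1.18% had a start-site peak in both backbone lists. That share was not counted for chromosome 8 alone, where backbone lists had 28.6% and 23.3% of their peaks. A start-site peak in all 16 lists was found for 5.79% of chromosome 8 genes and 0.892% of all genes. A trait of Zfp42 and one of its chromosome cannot be told apart here. Nanog had a start-site peak in 9 of 12 ESC lists, Sox2 in 8, Klf4 in 7, Pou5f1 in 4 and Esrrb in 0. Klf2, the other gene of the list on chromosome 8, had one in 11, among them 1 of the 2 backbone lists, and 1 region found only in p53 knockout ESCs. In the YY1 family, Yy1, the ubiquitous founder, had a start-site peak in 9 of 12 ESC lists and all 4 embryoid body lists, with 0 regions found only in p53-null cells of either state. Yy2, a retrotransposed copy on the X chromosome, had 0 of 16 start-site peaks and 1 region found only in p53 knockout ESCs. Rlim, whose product targets REX1, had a start-site peak in 8 of 12 ESC lists and in all 4 embryoid body lists.

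Over 21887 protein-coding genes, 180 (0.822%) had as many regions found only in p53 knockout ESCs as Zfp42 or more, and 255 (1.17%) as many found only in double knockout embryoid bodies. On chromosome 8 these were 114 (10.9%) and 77 (7.38%) of 1043 genes. Zfp42 was chosen by these contrasts, so its high place among genes was favoured by the choice and is a description only. Windows of neighbouring genes also share regions. Most genes with as many such ESC regions as Zfp42 thus lay on its own chromosome, 114 of 180, and the chromosome was examined along its length.

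In bins of 5 Mb, the share of regions found only in p53 knockout ESCs ran from 11.7% to 28.9% with a median of 21.5%, and was 17.6% (28 of 159) in the bin that holds Zfp42, where the other chromosomes together had 11.0%. Of the 26 bins, 20 had a higher share than that of Zfp42. In embryoid bodies the range was 3.7% to 16.8%, the median 8.93% and the Zfp42 bin 11.7% (41 of 351), with 5 bins above it and 4.38% on the other chromosomes. Regions found only in p53-null cells outnumbered parental-only ones in 25 of 26 bins in each state. The exceptions were an ESC bin 25 Mb from Zfp42 towards lower coordinates (46 against 130 parental-only regions) and an embryoid body bin 75 Mb towards higher ones (16 against 21). The shares at the locus itself, 5 of 16 and 4 of 22 regions, were above those of every bin but rest on few regions. The locus was chosen by these contrasts and the bins were not, so nothing is read from that order. The part of the wider pattern in the counts at Zfp42 was not tested. Peak lists hold no measure of chromosome copies, so a difference in copies of chromosome 8 between these lines and one in chromatin cannot be told apart here.

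**Figure D5:**
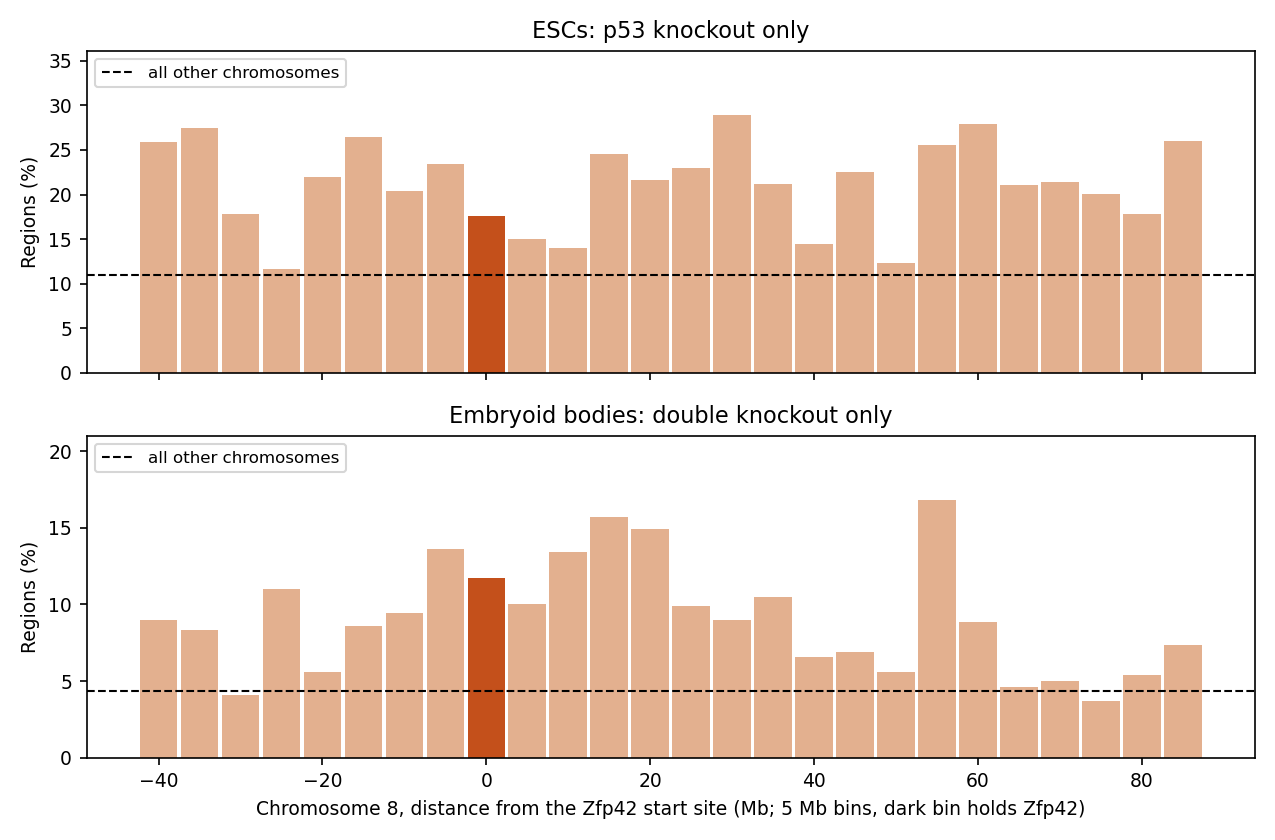
Share of merged regions (%) found only in p53 knockout against parental ESCs (top) and only in double knockout against parental embryoid bodies (bottom), in 5 Mb bins along chromosome 8 by distance from the Zfp42 start site (negative, lower coordinates); the dashed line is the share on all other chromosomes together. The Zfp42 bin (dark) is at 17.6% and 11.7%, within the range of the other bins.

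Genes whose windows followed the pattern of Zfp42 across libraries were sought by Spearman correlation of peaks per 10000 listed peaks, among 6153 genes with at least 9 ESC regions. Over the 12 ESC lists the 5 most alike were Ell2, an elongation factor (rho 0.91), Dck, deoxycytidine kinase (0.85), Adarb2, an RNA-editing family member (0.83), Mob1b, a Hippo pathway scaffold (0.83), and Slc4a4, a bicarbonate transporter (0.8), where the median gene had -0.27 and the median of 693 genes on chromosome 8 0.1. Over all 16 lists they were Ell2 (0.93), Dck (0.92), Mob1b (0.9), and the chromosome 8 genes Gab1, an adaptor protein, and Galnt7, a glycosyltransferase (0.87 each), with medians of -0.05 and 0.38. Dck, Mob1b and Slc4a4 lie together on chromosome 5 and share peaks, and all libraries share the list length that enters every value, so these are descriptions without a test.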

How the data were processed

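ATAC-seq peak lists of 16 libraries (12 ESC, 4 embryoid body) were used as deposited by the authors. The columns of the deposited ESC lists are a score, a signal of unstated scaling, a −log10 p and a summit. Those of the deposited embryoid body lists are a score, the ratio of peak to background (fold enrichment), a −log10 p and a −log10 q. The submitters' processing notes name build mm10, DESeq2, SAMtools and the tools MACS2 (2.1.2), Genrich (0.6) and Bowtie2 (2.3.5); the role of each and the caller of the ESC lists are not given in the sources used here. Each library has a list of its own. The lists hold no counts, so depth and its precision are unknown.

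Autosomal, X and Y peaks were used and, for each comparison, merged where they overlapped by 1 bp or more, over the whole series. A region was called for a group when every library of it and none of the other had a peak. A start-site peak lies within 1000 bp of the annotated start. Gene positions and promoters came from RefSeq tables (GRCm38.p6, the mm10 assembly). Locus peaks per 10000 listed peaks were compared by two-sided exact permutation over libraries, with Benjamini-Hochberg adjustment over 4 tests and a threshold of 0.05. Calling was tested on simulated data. Python 3.11.15, pandas 2.3.3, numpy 2.4.6, scipy 1.17.1 and matplotlib 3.10.9 were used. All regions of the locus are named; of the pluripotency list, the genes with the most regions found only in p53-null cells, plus Nanog, Pou5f1, Sox2, Klf4 and Esrrb; and the 5 genes most like Zfp42 across libraries. The members and lists were chosen with earlier results of these data known.

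Alternatives were windows of 50 and 200 kb, the stronger 50% of each list, equal list length, an overlap of 50%, merging across 200 bp, other denominators, 3 of 4 knockout lists, a replicate block and leaving out each library. The signal relative to the start-site peak was added after the values were seen.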

Additional observations from a re-analysis of the deposited data

Results flagged for a closer look

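The number of Zfp42 peaks in S91K-Y191F replicate 2, 8, stood far from the other 3 lists of p53-null ESCs without wild-type WDR5, which held 2 each. Its list is also the longest of these 4, with 16257 peaks against 1535 to 5174, and per 10000 listed peaks its value, 4.92, lies within the range of the others (3.87 to 13.0). The part of list length was not tested. Of 9 groups of 4 to 10 libraries examined in this way, some of which share libraries, 1 had such a library. The other 3 values of that group were equal, which makes any other number stand out. How often chance gives such a library was not measured.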

How the results depend on the processing

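Of 98 recomputed values of the comparisons, 88 stayed on their side of the threshold without a change of sign or, as counts, within 1.5 times; 1 of these differences fell to 0.0. The difference between p53-null ESCs without and with wild-type WDR5 (2.78 locus peaks per 10000) was 2.79 within 200 kb of the gene (exact permutation p = 0.0333), turned to -1.3 per 1000 chromosome 8 peaks (exact permutation p = 0.0238), and ran from 0.923 to 3.98 with 1 library left out; the cause was not tested. Regions found only in p53 knockout ESCs (5) numbered 3 in the stronger 50% of each list and 0 at the length of the shortest list, where fewer peaks are tested, 9 when 3 of 4 knockout lists sufficed, and 5 to 8 with 1 library left out. The 4 regions of double knockout embryoid bodies alone became 2 within 50 kb and 4 to 11 with 1 library left out. Regions found only in parental lists stayed at 0 under every alternative run. Among the values relative to the start-site peak, 2 of 48 changed sign: the region 26.6 kb upstream (-1.39 without WDR5WT replicate 2, over a range up to 6.69) and that 14.1 kb upstream (-0.132 without C9 replicate 2, up to 6.47), neither past the threshold in any alternative run. Leaving out 1 library moved the other differences to -1.03 to -0.537 (WDR5WT against p53 knockout), -8.64 to -3.63 (S91K-Y191F against backbone) and 0.513 to 1.18 (C9 against H9). The S91K-Y191F difference of -6.13 was 0.0 at equal list length, -0.932 in the stronger 50% of each list, -1.96 by covered bp and -0.427 per 1000 chromosome 8 peaks. The WDR5WT difference of -0.79 was -3.08 in the stronger 50%, -1.62 at equal list length and -1.95 by covered bp (exact permutation p = 0.0667 each, the smallest possible). Permuting within replicate numbers as a block left the differences as they were, with exact permutation p of 0.12, 0.333, 0.5 and 0.5; the labels tie no batch or day to the numbers, so these libraries share only a number. Unknown depth limits all counts: a region missing from a list may be open and under its threshold.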
